A study of Mus musculus with 6 samples.

Results

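Semaphorins are guidance ligands, and plexins and neuropilins are the receptors that bind them. The genes were chosen as members of these families by name, a rule that uses no measured values, although earlier results of these data were known: 20 semaphorin ligands and 11 receptors (9 plexins and 2 neuropilins), 31 genes of the 54146 counted. Of the 31, 29 had enough reads to be tested, and Sema3g and Plxnb3 did not. The libraries came from mouse embryos whose cortical wall was electroporated in utero at E14.5 (embryonic day) with 2 plasmids, one carrying GFP under the CAG promoter and one carrying a hairpin under the U6 promoter. The hairpin was the miR-3607 precursor in the Mir group or the scrambled sequence of the vector kit in the Scr group, and GFP-positive cells were sorted at E15.5. Every embryo was electroporated and carried GFP, and no untouched cortex enters the comparison. Wild-type embryos were used, given as ICR in the treatment protocol and as C57BL/6 in the characteristics, and their sex is not given. Each group had 3 libraries, each from cells pooled from 2 embryos.

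Class 3 semaphorins are secreted and mostly bind neuropilins, which have no signalling domain of their own and hand the signal to A-type plexins. Classes 4 to 7 are held at the membrane and bind plexins directly, with Sema4 ligands mainly paired to B plexins, Sema6 ligands to A plexins and Sema7a to Plxnc1. Plexins act inside the cell by switching off small GTPases of the Ras and Rap family and by changing the cytoskeleton. In the embryonic cortex these pairs steer axons, set the speed and direction of migrating neurons and act at the surface of ventricular progenitors.

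The sorted cells held markers of the labelled tissue, and also other cells in amounts that differed between libraries. Summed over 12 radial glia markers the level was 1674 to 2299 CPM (counts per 1000000 assigned reads, after scaling of library sizes) in Scr and 2108 to 2858 CPM in Mir. Over 12 neuron markers it was 5845 to 7673 CPM in Scr and 4772 to 5444 CPM in Mir. These sums are of different genes and are not scaled by length, so they do not rank the cell types. Single genes weighed heavily in them, with Neurod6 at 1883 to 2378 CPM and the radial glia marker Fabp7 at 609 to 1286 CPM. The 12 neuron markers were listed for excitatory neurons, but inhibitory neurons also express at least Tubb3, Dcx, Mapt, Snap25, Stmn2 and Map2. All 12 radial glia markers and all 7 intermediate progenitor markers had a higher mean in Mir, and 10 of the 12 neuron markers a lower one. The exceptions were the excitatory neuron genes Neurod2 and Tbr1, with log2 fold changes (Mir over Scr) of 0.08 and 0.04. The 10 endothelial markers summed to 99.3, 235 and 16.5 CPM in Scr replicates 1, 2 and 3 and to 4.90, 4.66 and 43.7 CPM in Mir, with 7, 6 and 0 of them at 0 in the Mir replicates. The defining markers Pecam1, Cdh5, Tie1, Cldn5 and Emcn were at 0 in Mir replicates 1 and 2. Of the 10 microglia markers, which summed to 22.5, 66.8 and 82.9 CPM in Scr, 8, 2 and 0 were at 0 in the Mir replicates, with sums of 10.1, 13.0 and 55.6 CPM. Csf1r alone gave most of the sums in Mir replicates 1 and 2, at 10.05 and 10.99 CPM. The 7 mural markers summed to 26.9 to 99.0 CPM in Scr and to 7.95, 8.37 and 39.9 CPM in Mir, with 4, 1 and 0 at 0. Notch3, the only mural marker with a higher mean in Mir, was at 4.33, 5.43 and 15.95 CPM there. The 6 meningeal fibroblast markers summed to 206 CPM in Mir replicate 2 against 1.02 to 27.8 CPM elsewhere. One of them, Foxc1, was instead highest in Scr replicate 2, at 7.965 CPM against 4.98 CPM in Mir replicate 2. Mir replicate 2 was the highest library for 3 of the 29 tested members (Sema3c, Sema4c and Sema6c) and the lowest for 6. It also had the highest sum of intermediate progenitor markers, at 3318 CPM. The part of these cells in the members' levels was not tested. In these bulk libraries fewer cells of a type and less RNA per cell cannot be told apart. Between 12724511 and 16684038 reads per library were assigned to genes.

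A microRNA pairs with messenger RNAs mainly through its seed, so the strand carried by the hairpin is shown here with its matches in 6 members. The labels print the oligonucleotide cloned for the hairpin, and the strand below is the part that follows its loop. Its seed, bases 2 to 8 from the 5′ end, is in capitals. The amount of mature microRNA in the cells was not measured.

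miR-3607 strand: gCATGTGAtgaagcaaatcagt

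A match was TCACATG, complementary to the seed, or CACATGA, complementary to its first part with an A after it, and TCACATGA holds both and was counted once. The sense strand of the 3′ UTR of 1 transcript per gene was searched (GENCODE M21 on GRCm38). Of the 31 members 10 held at least 1 match, 15 matches in all. They were the ligands Sema3a, Sema3c, Sema3d, Sema4g, Sema5a and Sema6a and the receptors Plxna2, Plxna3, Plxna4 and Nrp2. Among tested members the share was 34.5%, against 17.4% of 12718 tested genes with a UTR of at least 8 nt. With the longest UTR of each gene, 10 members still held a match, and the genes with one rose from 2208 to 2680. The median UTR was longer in the tested members than in all these genes, at 1363 and 1024 nt, and that of Sema3f in the transcript searched had only 11 nt. The 6 members below were chosen for display because they are the 4 receptors with a match, the ligand with the most matches (Sema4g, of which 2 are shown) and the most abundant ligand with one (Sema3c). Of the 15 matches 9 are printed. The 2 members that held TCACATGA, Sema3d and Sema6a, are not among those shown. All displayed members but Sema3c had lower means in Mir, as had 6 of the 10 members with a match. Capitals mark the match and the coordinates (GRCm38) are those of the capitals.

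Plxna2, chr1:194815715-194815721, plus strand: tgggcctgctgCACATGAgataaaagcaga

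Plxna2, chr1:194816552-194816558, plus strand: ctttatgcaggCACATGAaggccttgagcc

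Plxna3, chrX:74344322-74344328, plus strand: cagctgccctaTCACATGcccatccttaag

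Plxna4, chr6:32148775-32148781, minus strand: taaaatgagccTCACATGgggcaaagtccg

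Nrp2, chr1:62816579-62816585, plus strand: tatacatatatTCACATGcacacagcatgc

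Nrp2, chr1:62817984-62817990, plus strand: gggtcctgcccTCACATGcccagtggacca

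Sema4g, chr19:45002465-45002471, plus strand: cctgcttccatTCACATGtgcacatggaag

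Sema4g, chr19:45002989-45002995, plus strand: atctcacctggCACATGAagcccactcctg

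Sema3c, chr5:17730197-17730203, plus strand: gatgtagttacCACATGAgaatttaattag

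Beyond the matched letters these windows differ in the bases around them. Among the A plexins 3 of 4 held a match and Plxna1 did not. The B, C and D plexins, Nrp1, Sema4c and Sema7a held none in the UTR searched. A match is a description of the letters, and binding was not measured.

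The members were measured at very different levels. Per kb of exon, the scale on which genes can be compared, Nrp1 was the most abundant member at 28.9 CPM per kb (mean of the 6 libraries, range 27.5 to 31.7). Nrp1 is the shared co-receptor of Sema3 ligands and of VEGF. Sema3c followed at 24.8 (range 15.8 to 34.2), an attractive ligand for some cortical axons through Nrp1. Plxna2 at 16.3 (range 13.4 to 19.8), Sema6c at 15.52 (range 12.7 to 18.6), Plxnb2 at 13.3 (range 10.4 to 15.6) and Sema4c at 13.2 CPM per kb (range 7.91 to 17.4) came next, with library ranges that overlapped from each to the next. Plxna4, Sema6d, Plxna3 and Sema5b lay between 8.03 and 10.6 CPM per kb, and Plxnb1, Sema5a, Plxna1 and Sema3a between 5.30 and 6.88. The other 17 members were below 3 CPM per kb. By the longest transcript 11 of the 31 levels were over 1.5 times as high, among them Nrp1 (77.7), Sema3a (12.4), Sema5a (11.6) and Sema6d (16.3 CPM per kb), and Sema6d then stood above Plxnb2 and Sema4c, while the first 4 genes stayed in the same order. At the bottom, Plxnb3 had 0 reads in 5 libraries and 3 reads in Mir replicate 3, and Sema3g had 0 to 17 reads per library.

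**Figure D1:**
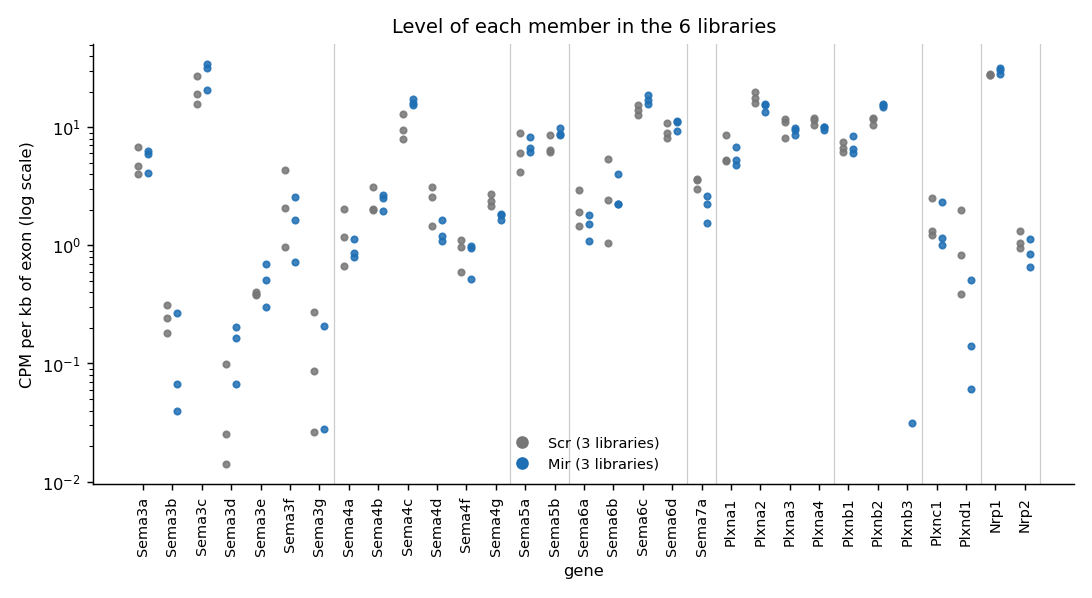
Level of each of the 31 genes in CPM per kb of exon (log scale), with 1 point per library, Scr in grey and Mir in blue, and vertical lines between the classes; libraries at 0 (Plxnb3 in 5, Sema3g in Mir replicate 2) are not drawn. Nrp1 and Sema3c lie highest, Plxnb3 lowest, and the spread between libraries is widest for low genes such as Plxnd1 and Sema3d.

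The first comparison asks whether the miR-3607 hairpin changed any member. No member passed the test: edgeR's quasi-likelihood test called 0 of 29 at a Benjamini-Hochberg adjusted p under 0.05, and the smallest adjusted p was 0.198. Over all 16897 genes it called 0.00592%, which is 1 gene, the ferritin pseudogene Ftl2-ps, named here after its value was seen. limma-voom also called 0 members, with a smallest adjusted p of 0.206. DESeq2 called Sema4c and Plxnb2 higher and no member lower, of 27 members to which it gave an adjusted p, while it called 1.86% of all genes higher and 2.51% lower. By edgeR's unadjusted p under 0.05, 4 members were higher (Sema4c, Sema5b, Sema6c and Plxnb2) and 6 lower (Sema4d, Sema4g, Sema7a, Plxna2, Plxna4 and Plxnd1). Of all genes 6.57% were higher and 7.93% lower by that threshold. The 3 Mir libraries all lay above the 3 Scr libraries for 4 members (Sema4c, Sema5b, Sema6c and Plxnb2), against 9.72% of all genes. They all lay below for 4 members (Sema4g, Sema7a, Plxna2 and Plxna4), against 10.3%.

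Over all members, higher and lower means were about balanced. A higher mean in Mir was seen for 13 of 29 and the median log2 fold change was -0.13, against 48.8% of all genes and a median of -0.01. The 19 tested ligands had 10 higher means and a median of 0.01, and the 10 tested receptors 3 higher means and a median of -0.18. Among the ligands, Sema3 had 4 of 6 higher (median 0.22), Sema4 2 of 6 (median -0.30), Sema5 2 of 2 (median 0.26) and Sema6 2 of 4 (median 0.07), and Sema7a was lower. Among the receptors, all 4 A plexins were lower (median -0.20, with 2 of them higher in the fit with an endothelial covariate), both tested B plexins higher (median 0.24), Plxnc1 and Plxnd1 lower, and the neuropilins 1 of 2 higher. These counts of means carry no test.

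**Figure D2:**
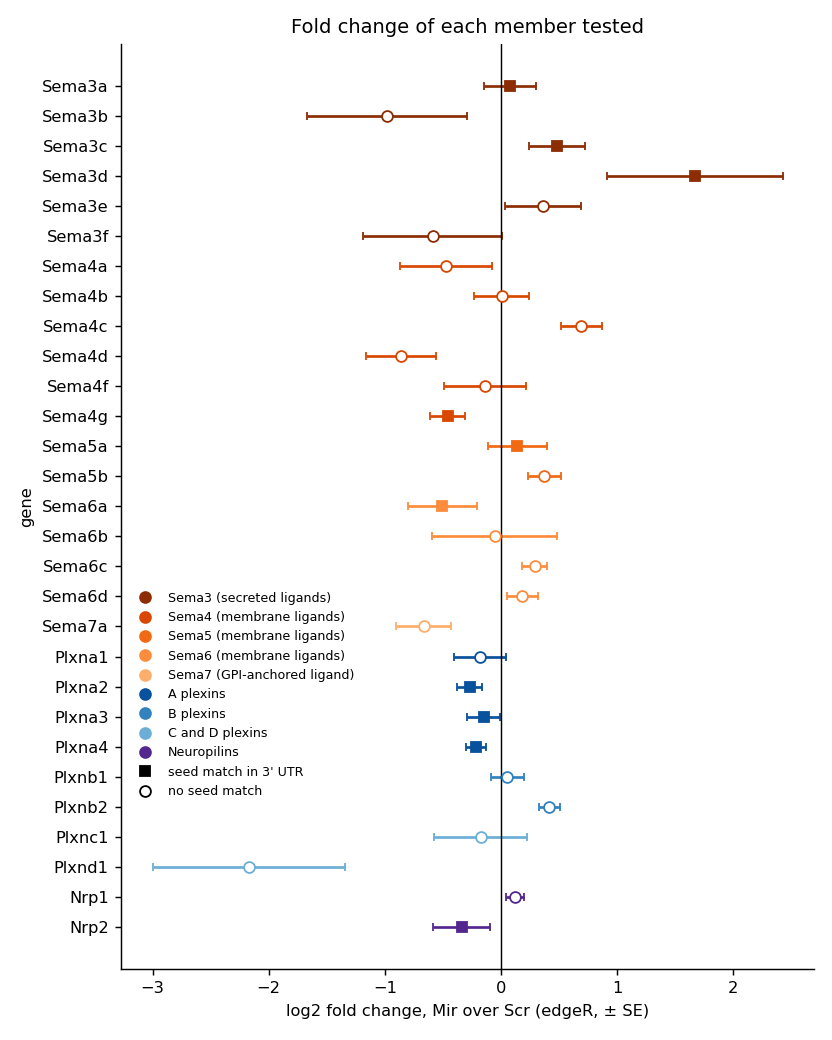
Log2 fold change, Mir over Scr, of the 29 tested members from edgeR with its SE, coloured by class, with filled squares for genes with a seed match and open circles for genes without. The 4 A plexins lie left of 0 and the 2 B plexins right of it, and Plxnd1 has the lowest value at -2.17 with an SE of 0.83.

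Sema4c and Plxnb2 are a ligand and its receptor, and both had higher levels in every Mir library. Sema4c (ENSMUSG00000026121, GRCm38 chr1:36548639-36558349, minus strand) encodes a membrane semaphorin found in the developing brain. It stood at 43.3, 59.2 and 36.3 CPM in Scr replicates 1, 2 and 3 and at 70.8, 79.9 and 73.6 CPM in Mir. The lowest Mir library was thus above Scr replicate 2, the highest of its group. The group means were 46.3 ± 11.7 and 74.8 ± 4.65 CPM (SD, n = 3), which gives a log2 fold change of 0.69 ± 0.17 (SE). The edgeR adjusted p was 0.212, and DESeq2 gave an adjusted p of 0.0151. Plxnb2 (ENSMUSG00000036606, chr15:89155549-89180788, minus strand) encodes a plexin of ventricular progenitors. It stood at 92.6, 80.3 and 91.0 CPM in the Scr pools and at 114, 118 and 121 CPM in the Mir pools, with a smaller spread in Mir than in Scr. The group means were 88.0 ± 6.71 and 117 ± 3.38 CPM (SD, n = 3), which gives a log2 fold change of 0.42 ± 0.09. The edgeR adjusted p was 0.198, and DESeq2 gave an adjusted p of 0.0101.

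The DESeq2 calls of this pair were lost without some single libraries. For Sema4c the DESeq2 adjusted p was 0.0642 when Scr replicate 1 was left out, 0.0890 for Scr replicate 3, 0.0748 for Mir replicate 1 and 0.203 for Mir replicate 2. It was 1.84e-07 when Scr replicate 2 was left out. For Plxnb2 the call was lost when Mir replicate 1 (0.0655) or Mir replicate 2 (0.143) was left out. The log2 fold changes in these DESeq2 fits were 0.55 to 0.91 for Sema4c and 0.35 to 0.46 for Plxnb2. Over the edgeR and limma-voom alternatives the adjusted p ranged from 0.0583 to 0.621 for Sema4c and from 0.128 to 0.665 for Plxnb2, and both genes had a higher mean in each of these fits. Reads of Sema4c could partly belong to D430040D24Rik, which overlaps 7.27% of its exon bases on the opposite strand and had 253 counts in all, against 5425 for Sema4c. Radial glia and intermediate progenitor markers also had higher means in Mir, and their part in the levels of Sema4c and Plxnb2 was not tested.

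**Figure D3:**
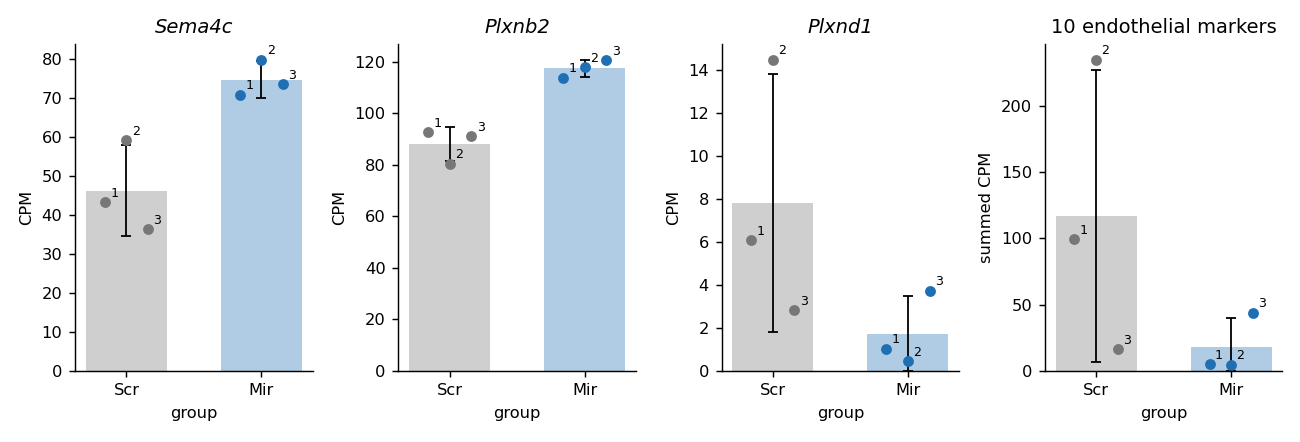
CPM of Sema4c, Plxnb2 and Plxnd1 and the summed CPM of 10 endothelial markers; bars are means of 3 libraries, error bars the SD (not drawn below 0), and points the libraries with their replicate number. All Mir points lie above all Scr points for Sema4c and Plxnb2, whereas Plxnd1 and the endothelial sum share their order of libraries, with Scr replicate 2 highest.

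Other membrane ligands had lower levels in Mir, without passing the test. Sema4d, the ligand of Plxnb1 and a product of immune and neural cells, was at 11.1, 24.1 and 19.8 CPM in the Scr pools and 9.29, 8.37 and 12.7 CPM in the Mir pools. Only Scr replicate 1 reached into the Mir range. Its log2 fold change was -0.86 ± 0.30 with an edgeR adjusted p of 0.282. Sema4g, with matches shown above, was at 20.7, 23.7 and 18.7 CPM in the Scr pools and 15.7, 14.1 and 16.1 CPM in the Mir pools, so the groups did not overlap. Its log2 fold change was -0.46 ± 0.15 with an edgeR adjusted p of 0.263. Sema7a, a GPI-anchored ligand that promotes axon growth through integrins, was at 11.7, 11.9 and 9.88 CPM in the Scr pools and 7.38, 5.11 and 8.62 CPM in the Mir pools. All Mir libraries lay below all Scr libraries, with Mir replicate 2 lowest. Its log2 fold change was -0.67 ± 0.24 with an edgeR adjusted p of 0.284.

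These lower ligands ranked the libraries in the same order as marker lists of other cells did. Sema4d followed the sum of 10 inhibitory neuron markers, which was 254, 1035 and 364 CPM in the Scr pools and 135, 113 and 326 CPM in the Mir pools with none of the 10 at 0. Sema4g and Sema7a followed the sum of 6 Cajal-Retzius markers, 15.2, 19.6 and 14.2 CPM in the Scr pools and 7.31, 6.196 and 12.7 CPM in the Mir pools. Reln, the largest term of that sum, had 49 to 227 reads in every library, and Trp73, Lhx1 or Lhx5 were at 0 in 4 of the 6 libraries. Trp73 (0.25 CPM in Scr and 0.76 in Mir) and Lhx1 (0.05 and 0.30) had higher means in Mir. The matched order is thus that of a sum led by Reln, and not of each marker in the list. Sema3c had the order of the intermediate progenitor markers and Plxnd1 that of the endothelial markers, and these 5 were the matches among 290 pairs of a member and a list, noted after the values were seen. The part of these cells in the levels was not tested.

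Sema5b and Sema6c were the membrane ligands, beside Sema4c, with all Mir libraries on the higher side. Sema5b, a ligand with thrombospondin repeats that repels some cortical axons, was at 60.1, 43.7 and 44.9 CPM in the Scr pools and 61.1, 62.2 and 69.1 CPM in the Mir pools. Scr replicate 1 came within about a CPM of the lowest Mir library. The log2 fold change was 0.37 ± 0.14 with an edgeR adjusted p of 0.304. Sema6c was at 82.1, 91.2 and 75.1 CPM in the Scr pools and 101, 110 and 92.8 CPM in the Mir pools, again with a narrow gap between Scr replicate 2 and Mir replicate 3. Its log2 fold change was 0.29 ± 0.11 with an edgeR adjusted p of 0.295. The remaining membrane ligands overlapped between groups: Sema4a, Sema4b, Sema4f, Sema5a, Sema6a, Sema6b and Sema6d had log2 fold changes from -0.50 (Sema6a) to 0.19 (Sema6d), with edgeR adjusted p from 0.476 upward. Sema6a is the ligand of Plxna2 and Plxna4 and held 2 seed matches, whose sequence is not shown.

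Secreted ligands were led by Sema3c, and none was called. Sema3c was at 193, 113 and 137 CPM in the Scr pools and 228, 244 and 147 CPM in the Mir pools. Mir replicates 1 and 2 were higher than every Scr library, and Mir replicate 3 lay inside the Scr range. The log2 fold change was 0.48 ± 0.24, with an edgeR adjusted p of 0.408. The 7 intermediate progenitor markers summed to 2293, 1509 and 2056 CPM in the Scr pools and 2891, 3318 and 2286 CPM in the Mir pools. Sema3a, the classical repellent of cortical axons, was at 71.6 ± 19.8 CPM in the Scr pools and 75.4 ± 16.3 CPM in the Mir pools (SD, n = 3), and Sema3f, which acts through Nrp2, at 12.8 ± 9.03 and 8.54 ± 4.77 CPM. For both genes the groups overlapped. Sema3b, Sema3d and Sema3e were below 7 CPM in every library, and the widest estimate among them was that of Sema3d, with 2 to 11 reads in Scr and 9 to 26 in Mir and a log2 fold change of 1.67 ± 0.76.

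The A plexins, which carry the signals of the Sema3 ligands through neuropilins and of the Sema6 ligands directly, had lower means in Mir in all 4 cases, of which Plxna1 (0.23) and Plxna3 (0.12) turned higher on the log2 scale with the endothelial covariate. Plxna2 (ENSMUSG00000026640, chr1:194618218-194816869, plus strand), the most abundant plexin, was at 340, 303 and 274 CPM in the Scr pools and 270, 262 and 230 CPM in the Mir pools. The groups were separated by the small step between Scr replicate 3 and Mir replicate 1. Its log2 fold change was -0.27 ± 0.11 with an edgeR adjusted p of 0.324. Plxna4 (ENSMUSG00000029765, chr6:32144268-32588192, minus strand), a receptor for Sema3a and Sema6a, was at 148, 170 and 163 CPM in the Scr pools and 140, 142 and 133 CPM in the Mir pools. Again no Mir library reached the Scr range. Its log2 fold change was -0.21 ± 0.09 with an edgeR adjusted p of 0.327. Plxna3, the receptor of Sema3f, was at 80.8 ± 14.6 and 72.8 ± 5.21 CPM, and Plxna1 at 57.6 ± 17.7 and 50.8 ± 9.34 CPM (SD, n = 3), with overlapping groups. The log2 fold changes were -0.15 ± 0.14 for Plxna3 and -0.18 ± 0.22 for Plxna1. Plxna1 shares 10.7% of its exon bases with the antisense gene Gm26811 and Plxna4 0.78% with Plxna4os3, so that their reads are uncertain there, and the log2 fold change of Plxna1 turned to 0.10 without Scr replicate 2.

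The B, C and D plexins and the neuropilins differed in the direction of their means. Plxnb1, the receptor of Sema4d, was at 64.8 ± 6.31 CPM in the Scr pools and 67.2 ± 11.6 CPM in the Mir pools (SD, n = 3), a log2 fold change of 0.06 ± 0.14 that turned to -0.09 without Mir replicate 1. Plxnc1, the receptor of Sema7a, was at 10.98, 21.0 and 10.3 CPM in the Scr pools and 8.395, 9.58 and 19.5 CPM in the Mir pools, with Scr replicate 2 and Mir replicate 3 far above the rest. Nrp1 was at 275, 271 and 269 CPM in the Scr pools and 310, 300 and 274 CPM in the Mir pools. Its Scr libraries were close to one another, and Mir replicate 3 lay between them. The log2 fold change of Nrp1 was 0.12 ± 0.08 with an edgeR adjusted p of 0.526. Nrp2, the co-receptor of Sema3f, was lower in abundance, at 15.6, 12.5 and 11.2 CPM in the Scr pools and 13.3, 9.96 and 7.74 CPM in the Mir pools, with a log2 fold change of -0.34 ± 0.24.

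Plxnd1 (ENSMUSG00000030123, chr6:115954811-115995005, minus strand), the receptor of Sema3e that is best known from blood vessels, had the lowest fold change of the families. It was at 6.08, 14.48 and 2.83 CPM in the Scr pools and 1.02, 0.447 and 3.73 CPM in the Mir pools, from 7 to 200 reads per library. Scr replicate 3 lay below Mir replicate 3, so the groups overlapped. The log2 fold change was -2.17 ± 0.83 with an edgeR adjusted p of 0.307 and a DESeq2 adjusted p of 0.0778. The 6 libraries had the same order for Plxnd1 as for the 10 endothelial markers, all 10 of which had lower means in Mir (median -2.69 on the log2 scale). With the endothelial level of each library as a covariate the edgeR log2 fold change of Plxnd1 was -0.53 ± 0.43. It was -1.36 without Scr replicate 2 and -3.40 without Mir replicate 3.

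The second comparison sets ligand classes against their receptors. Summed per kb, the ligands stood at 102, 94.7 and 84.3 CPM per kb in Scr and at 113, 118 and 101 CPM per kb in Mir. The receptors stood at 97.4, 100.3 and 88.9 CPM per kb in Scr and at 97.1, 93.1 and 93.1 CPM per kb in Mir. The ratio of ligand to receptor sums was therefore 1.04, 0.944 and 0.948 in Scr and 1.16, 1.26 and 1.09 in Mir, with no overlap (an exact two-sided permutation test of 3 against 3 libraries cannot give a p below 0.1). With the longest transcript as the length in place of the union of exons, the ratio was 0.907, 0.808 and 0.805 in Scr and 0.956, 1.03 and 0.914 in Mir, so that which side is larger depends on the length used, while the groups still did not overlap. Sema3c was the largest single term on the ligand side, and the Sema3 class as a whole summed to 29.1 ± 5.61 CPM per kb (SD, n = 3) for Scr and 36.8 ± 7.43 for Mir. On the receptor side the A plexins summed to 46.4, 50.0 and 40.9 CPM per kb in Scr and 40.0, 39.0 and 39.3 in Mir, and the B plexins to 19.4, 17.1 and 17.9 in Scr and 23.1, 21.3 and 22.2 in Mir. The A plexin sums were lower and the B plexin sums higher in every Mir library, and A plexins were still the larger receptor class in every library. The neuropilin sums, set almost wholly by Nrp1, were 28.9 ± 0.47 CPM per kb in Scr and 31.01 ± 2.13 in Mir.

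**Figure D4:**
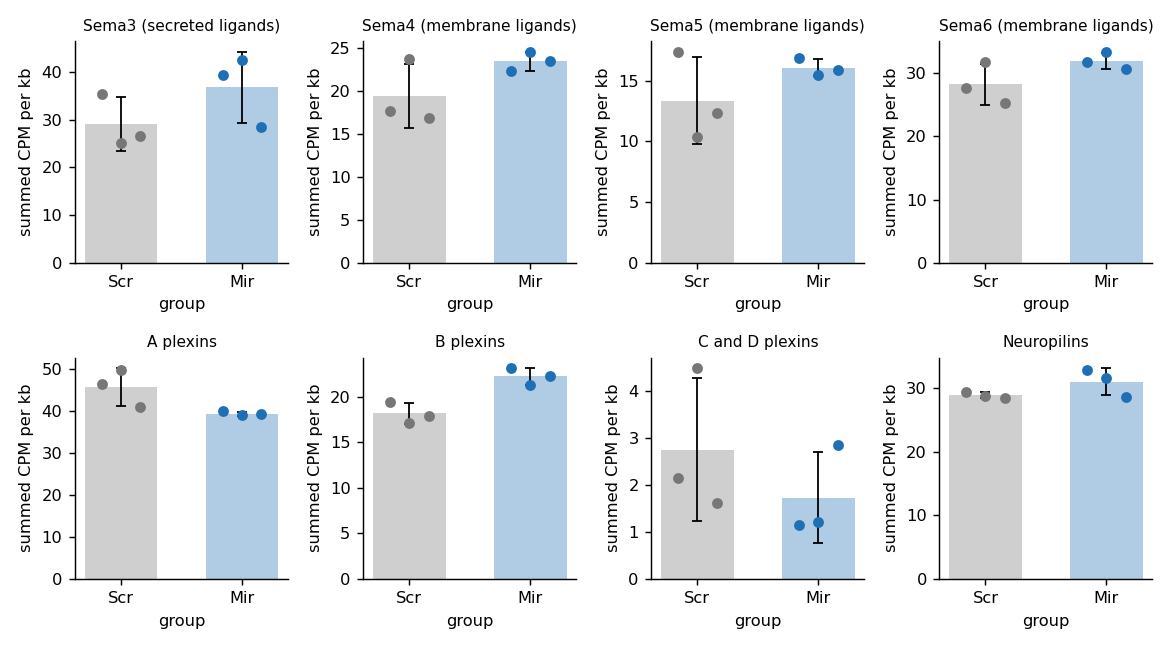
Summed CPM per kb of the members of each class with more than 1 gene; bars are means of 3 libraries, error bars the SD, and points the libraries in replicate order. Mir points lie below all Scr points for the A plexins and above them for the B plexins, and the groups overlap for Sema3, Sema4, Sema5, Sema6, the C and D plexins and the neuropilins.

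Pair by pair, ligand and plexin had means on the same side in 6 cases of 14. These were the pairs with both partners tested, of 15 textbook pairs. In 7 the ligand was higher and the plexin lower, in 5 both were lower, in 1 both were higher and in 1 the plexin alone was higher. With the endothelial level as a covariate these counts were 5, 1, 4 and 4, and without Scr replicate 2 they were 5, 3, 2 and 4, so the directions of many pairs depend on those choices. Several pairs share a plexin or a ligand, so they are not independent. The pair with both higher was Sema4c with Plxnb2, also near in level at 13.2 and 13.3 CPM per kb. The list sets Plxnb2 beside no other ligand, and the Sema4 ligands Sema4d and Sema4g had lower means in Mir, so these counts depend on the pairs listed. The pair with the plexin alone higher was Sema4d with Plxnb1, at log2 fold changes of -0.86 ± 0.30 and 0.06 ± 0.14. The 5 with both lower were Sema3f with Plxna3, Sema6a with Plxna2 and with Plxna4, Sema6b with Plxna4, and Sema7a with Plxnc1. Sema3c and Plxnd1 were the farthest apart in fold change, at 0.48 ± 0.24 and -2.17 ± 0.83 on the log2 scale, with levels of 24.8 and 0.65 CPM per kb. With the endothelial covariate they were at 0.13 and -0.53, and Sema7a and Plxnc1 had the widest gap, at -0.39 and 0.56. Sema3a, with Nrp1 as its co-receptor, was at 0.08 ± 0.23 beside Plxna4 at -0.21 ± 0.09.

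The seed matches fell on ligands and receptors with unlike directions. All 4 receptors with a match, Plxna2, Plxna3, Plxna4 and Nrp2, had lower means in Mir (Plxna3 not with the endothelial covariate) and a median fold change, on the log2 scale, of -0.24, and the 6 tested receptors without a match had a median of -0.06, with 3 of the 6 lower. Of the 6 ligands with a match, Sema4g and Sema6a had lower means and Sema3a, Sema3c, Sema3d and Sema5a higher ones, with a median of 0.11. Over the members together the medians were -0.18 with a match and -0.06 without. Over all genes tested they were -0.03 and 0.00, with 1214 of 2208 genes with a match lower and 5234 of 10510 without. None of the 10 members with a match was called by edgeR or by DESeq2 with all 6 libraries. Sema3c was called higher by DESeq2 without Scr replicate 1 (adjusted p 0.0368) or Mir replicate 3 (0.0452), fits whose share of all genes called is not given here. No test was made of these differences. UTR length went with the presence of a match, with a median of 3010 nt in the tested members that had one and 986 nt in those that did not.

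Single libraries set much of the spread within the families. Scr replicate 2 was the highest library for 12 of the 29 tested members and the lowest for 6. Among the 12 were Sema3f, Sema6b, Plxna1, Plxnc1 and Plxnd1, and among the 6 were Sema3a, Sema3c, Sema5a and Plxnb2. The share of all genes highest or lowest in this library is not given here, so these counts have no background beside them. Over all tested genes Scr replicate 2 also stood apart. Its Pearson correlations with Scr replicates 1 and 3 were 0.9686 and 0.9737, against 0.9808 between those libraries. Sema6b reached 21.4 CPM in that library against 4.13 and 9.51 CPM in the other Scr libraries. Scr replicate 2 was also the library with the highest inhibitory neuron and endothelial sums. Its sum of the 12 neuron markers was the highest as well (7673 CPM). Its radial glia (1674 CPM) and intermediate progenitor (1509 CPM) sums were the lowest. The part of these cells in its levels was not tested.

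**Figure D5:**
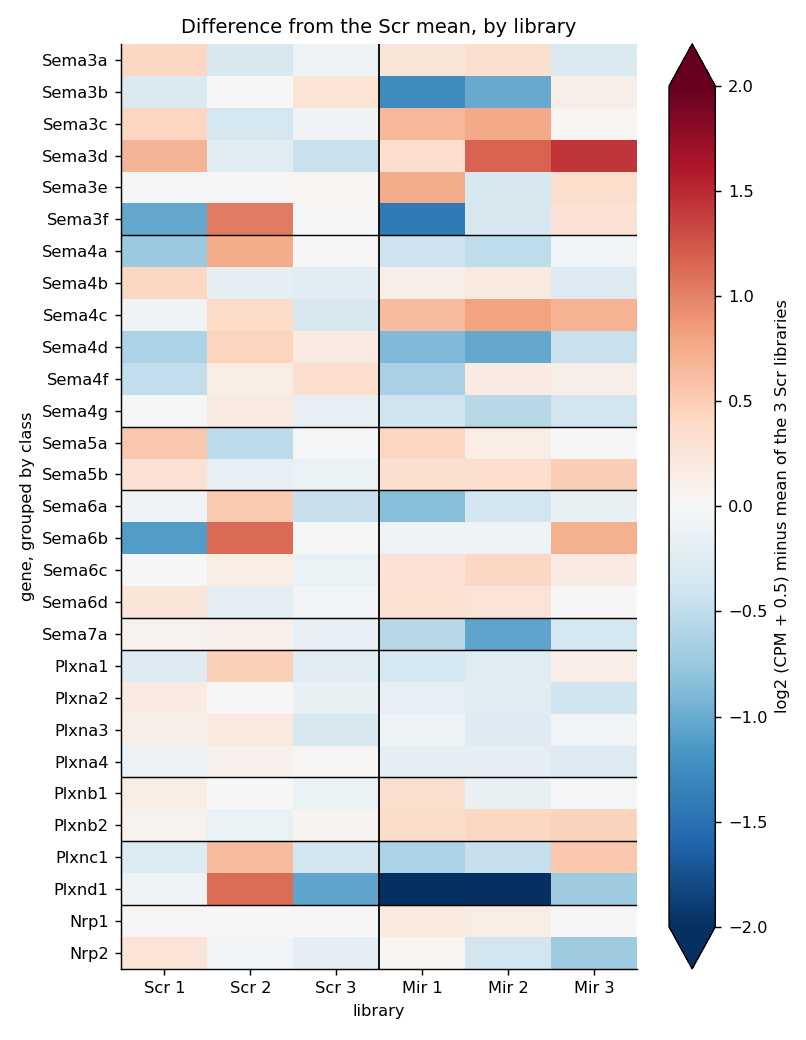
Difference of log2 (CPM + 0.5) from the mean of the 3 Scr libraries for each of the 29 tested members (rows, by class) in each library (columns); red is higher and blue lower, and the scale ends at 2 in either direction, which Plxnd1 passes in Mir replicates 1 and 2. Rows such as Sema4c and Plxnb2 are red in all Mir columns, and the column of Scr replicate 2 holds the strongest reds of Sema3f, Sema6b, Plxnc1 and Plxnd1.

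The partners and effectors of the pathway were read from a list of 51 genes, of which 48 were tested. edgeR called 0 of them (smallest adjusted p 0.214), with 16 higher means and 32 lower ones and a median log2 fold change of -0.07. By edgeR's unadjusted p under 0.05, 2 were higher and 6 lower. Of all genes 6.57% and 7.93% were, and 48.8% had a higher mean. DESeq2 called 3 lower and 0 higher of 46 with an adjusted p, against 2.51% and 1.86% of all genes. The 3 were Dpysl3, Chl1 and Rap1b. All 5 collapsin response mediator proteins, the relays of Sema3a signalling, had lower means. Dpysl3, one of them, was at 573, 934 and 718 CPM in the Scr pools and 418, 427 and 528 CPM in the Mir pools, with a DESeq2 adjusted p of 0.0101 and an edgeR adjusted p of 0.214. Chl1, an adhesion molecule that partners neuropilins, was at 74.0, 185 and 104 CPM in the Scr pools and 63.7, 53.3 and 71.9 CPM in the Mir pools, with a DESeq2 adjusted p of 0.0339. Rap1b, a small GTPase on which plexins act, was at 228, 211 and 225 CPM in the Scr pools and 168, 140 and 184 CPM in the Mir pools, with a DESeq2 adjusted p of 0.0298. No Mir library of these genes reached the Scr range.

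These DESeq2 calls were also lost without some single libraries. Without Scr replicate 2, in which Chl1 was highest, its DESeq2 adjusted p was 0.147 and its log2 fold change -0.50 in place of -0.94. The DESeq2 call of Chl1 was kept only without Scr replicate 1 (adjusted p 0.000772), and was lost when Scr replicate 3 (0.0874), Mir replicate 1 (0.175), Mir replicate 2 (0.308) or Mir replicate 3 (0.260) was left out. The call of Dpysl3 was lost without Scr replicate 3 (0.0612), Mir replicate 1 (0.134) and Mir replicate 2 (0.179). That of Rap1b was lost without Scr replicate 1 (0.103), Scr replicate 3 (0.156), Mir replicate 1 (0.159) and Mir replicate 2 (0.209). The log2 fold change of Dpysl3 in the DESeq2 fits that lost the call was -0.72, -0.63 and -0.64, against -0.70 with all libraries, and that of Rap1b was -0.41, -0.42, -0.45 and -0.32, against -0.43. The sum of the 12 neuron markers was lower in every Mir library than in every Scr library, although Neurod2 and Tbr1 had higher means in Mir. Some of the 12 are also expressed by inhibitory neurons, whose 10 markers all had lower means in Mir. The part of either cell type in the levels of Dpysl3 and Chl1 was not tested.

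Of the other pathway genes, 5 passed the unadjusted threshold in edgeR and none the adjusted one. L1cam, the adhesion partner of Nrp1 in Sema3a signalling, was at 86.2 ± 10.4 CPM in the Scr pools and 67.6 ± 0.67 CPM in the Mir pools (SD, n = 3), a log2 fold change of -0.35 ± 0.10. Mical2, an actin-oxidising enzyme, was at 1.64 ± 0.99 and 0.587 ± 0.18 CPM. Kdr, the VEGF receptor that pairs with Nrp1 and is itself an endothelial marker, was at 6.78, 25.1 and 0.963 CPM in the Scr pools and 0, 0.319 and 2.44 CPM in the Mir pools. Higher means were seen for Vegfa, the other main ligand of Nrp1, at 74.2 ± 12.9 and 100.2 ± 15.9 CPM, and for Sh3bp1, a Rac regulator bound by plexins, at 2.26 ± 0.55 and 3.62 ± 0.30 CPM. Their edgeR adjusted p values were 0.244 for L1cam, 0.312 for Mical2, 0.311 for Kdr, 0.299 for Vegfa and 0.339 for Sh3bp1.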

How the data were processed

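RNA from 6 pools of sorted cells was read as 50 bp single reads from SMART-seq v4 libraries, a kit that does not mark strand, per the labels. The authors deposited raw counts per gene, and the submitters' processing notes name HISAT2 2.1.0, HTSeq 0.11.0, DESeq2 1.18.1 and the build mm10 (GRCm38). Neither the annotation nor the strand setting is given in the sources used here. Between 21.9 and 23.6% of listed reads were assigned to genes, and lines that name no gene were left out. Symbols came from GENCODE M21 (54079 of 54146 genes matched). Counts over all genes that passed filterByExpr (16897) were fitted with edgeR 4.0.16 in R 4.3.3 (TMM scaling, quasi-likelihood F test, group as the only term, two-sided, Benjamini-Hochberg over all of them, threshold 0.05). DESeq2 1.42.0, limma-voom (limma 3.58.1), RLE scaling, no filter, a replicate block, an endothelial covariate and left-out libraries were alternatives. The endothelial covariate is the library's mean of log2 (CPM + 0.5) over the endothelial markers other than Kdr, and not the sum of all 10. Levels per kb divide CPM by the union of exons. Members with an unadjusted edgeR p under 0.05 and the most abundant member of each class are given library by library. Pathway genes are named by that same p, with at most 3 per role. The members and lists were chosen with earlier results of these data known. The scripts were tested on simulated data. Each library is a pool of embryos, so p-values reflect the variation among such pools.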

Additional observations from a re-analysis of the deposited data

How the results depend on the processing

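Over 13 alternative fits, 17 of 29 members kept the sign of their fold change and 12 turned in at least 1. No edgeR or limma-voom fit called a member. DESeq2 called 247 genes higher and 333 lower, with 2 members higher and 3 pathway genes lower. When 1 library was left out, edgeR and DESeq2 called 0 to 3 members higher and 0 to 1 lower. The nonzero counts came from DESeq2 with a library left out, a setting added after seeing the data, which called Sema3c, Sema5b and Sema4d without Scr replicate 1 and Sema3c and Plxnd1 without Mir replicate 3, beside Sema4c or Plxnb2. The share of all genes called in each of these fits is not given here, so these member counts have no background beside them. limma-voom, the replicate block and the endothelial covariate called 0 genes lower in place of 1; without the filter 15 were called higher and 16 lower, and without Scr replicate 2 and Mir replicate 3 together 10 and 19, with 7 members wholly above and 8 wholly below. With 1 library left out edgeR called 0 to 2 genes lower, and 4 to 9 members lay wholly above and 4 to 8 wholly below. Groups of fewer libraries separate without overlap more often by chance. The share of all genes in these settings is not given here, so these counts cannot be compared with those of all 6 libraries. The log2 fold change of Sema6b was 0.17 with limma-voom, 0.20 with the replicate block and 0.37 without both libraries.

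With the endothelial covariate the sign turned for Sema3a (-0.20), Sema3f (0.12), Sema4b (-0.11), Sema5a (-0.071), Sema6a (0.079), Sema6b (0.64), Plxna1 (0.23), Plxna3 (0.12) and Plxnc1 (0.56). With 1 library left out the log2 fold change ranged from -0.075 to 0.31 for Sema3a, -1.07 to 0.11 for Sema3f, -0.78 to 0.0072 for Sema4a, -0.10 to 0.25 for Sema4b, -0.36 to 0.11 for Sema4f, -0.086 to 0.45 for Sema5a, -0.45 to 0.71 for Sema6b, -0.35 to 0.10 for Plxna1, -0.088 to 0.15 for Plxnb1 and -0.66 to 0.23 for Plxnc1. The cause of these turns was not tested. The labels do not say whether replicate numbers pair the samples. Deviations of same-numbered libraries correlated at 0.248, -0.147 and -0.087, within the range of -0.326 to 0.357 over all pairs of a Scr and a Mir library. With 3 libraries per group these values cannot settle whether the samples are paired. The replicate block called no member. Levels per kb by the longest transcript in place of the exon union differed by up to 2.68 times, with Nrp1 highest either way. The number of members with a seed match was 10 with the longest UTR as well, while that of all genes tested rose from 2208 to 2680. The contrast between members and all genes thus depends on the UTR used. Nrp2 held 1 match in its longest UTR in place of 2.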
